A study of Homo sapiens with 9 samples.

Results

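Integrins are cell-surface receptors made of 1 α and 1 β subunit, through which cells hold on to the extracellular matrix (ECM). The genes described here are 10 integrin genes, those of the β subunits ITGB1, ITGB3, ITGB4, ITGB5, ITGB6 and ITGB8 and of the α subunits ITGAV, ITGA3, ITGA5 and ITGA6, taken by name from the 58735 genes of the count table. RNAseq was carried out on 786-0 cells, an established line of clear cell renal cell carcinoma, with 3 replicates in each of 3 groups. Every group, KO included, lacks functional VHL, the protein that marks HIFα for degradation, and carries a HIF1A gene inactivated by mutation, which leaves HIF2α as the HIFα of the parental cells. All were grown in low-glucose medium with serum at normal oxygen for 48 h. The groups were untreated parental cells (WT, genotype WT), parental cells kept for 48 h with 10 μM PT2385, an antagonist of HIF2α (PT2385, genotype WT) and cells of genotype hif2a KO without drug (KO). How the knockout line was made, whether it is 1 clone, and whether untreated cells received vehicle are not given in the sources used here, so that a change in KO and the history of that line cannot be told apart.

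The α subunit αV pairs with β1, β3, β5, β6 and β8, and these receptors bind ligands with the tripeptide RGD, such as fibronectin and vitronectin. αVβ6 and αVβ8 also bind the latent form of TGFβ and are known for activating it. β1 in addition pairs with α3 and α6, which bind laminins, and with α5, the main fibronectin receptor, while β4 pairs with α6 alone and anchors epithelial cells at hemidesmosomes. In the kidney α3β1 and α6β1 hold tubular cells to the basement membrane.

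Sequences upstream of the gene start are given for the 2 genes with the largest fold changes against WT in opposite directions, ITGB8 and ITGB6, because HIF binds the core letters ACGTG or GCGTG. They were taken from RefSeq (GRCh38.p14), which held a start for 7 of the 10 genes and not for ITGB3, ITGB4 and ITGA3, and they stop at the first annotated exon. Capitals mark a core on either strand.
ITGB8: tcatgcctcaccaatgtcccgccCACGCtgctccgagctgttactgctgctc
ITGB6: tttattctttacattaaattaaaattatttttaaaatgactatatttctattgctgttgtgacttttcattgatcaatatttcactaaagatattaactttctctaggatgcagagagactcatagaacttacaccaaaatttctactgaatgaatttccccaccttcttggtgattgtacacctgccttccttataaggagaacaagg
The ITGB8 stretch lies at chr7:20330650.0-20330701.0 on the plus strand and the ITGB6 stretch at chr2:160200314.0-160200522.0 on the minus strand. In the 250 bases before its RefSeq start ITGB8 held 2 cores, CACGC and GCGTG, of which the stretch above holds the first, and ITGB6 held 0. Of 35116 RefSeq promoters, 43.2% held at least 1 core in 250 bases, with CACGTG counted on both strands. ITGA5 held 1 core, the 2 starts of ITGA6 held 3 and 1, the 3 starts of ITGB5 held 0, 3 and 1, and the starts listed for ITGAV and ITGB1 held 0. These are letter matches in a short window and no binding was measured.

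Between 11881000 and 14730081 reads were counted per library. EPAS1, the gene of HIF2α, had 271, 265 and 233 CPM in WT, 249, 248 and 219 CPM upon PT2385 treatment and 20.3, 25.0 and 21.1 CPM in KO. Its RNA was thus lower in KO, with 262 to 360 counts left. RNA alone cannot tell a knockout from a lowered level. Values are CPM, counts per 1000000 counted reads after TMM scaling. The 9 renal carcinoma markers summed to 5920 to 6520 CPM in all libraries, most of it VIM (4262 to 4746 CPM on average per group), with PAX8 at 586 to 666 CPM on average and CA9 at 0 counts throughout. Of the 8 tested, CDH6, KRT8 and KRT18 were called higher and PAX2 lower than WT in both other groups, with PAX2 at 34.3, 25.3 and 13.7 CPM on average in WT, PT2385 and KO. Of all tested genes 7.70% were called with PT2385 and 30.1% in KO. KRT8 and KRT18 overlap each other on opposite strands. Without the strand setting of the counting, their reads cannot be told apart. PTPRC, the defining leukocyte marker, had at most 1 count in a library, and the endothelial markers summed to at most 0.168 CPM. LCP1, also on the leukocyte list, was counted, with 452 to 472 counts in WT and 39 to 102 in KO. It was called lower in KO (log2 fold change -2.95, adjusted p = 2.2e-06, edgeR). The 3 fibroblast markers summed to 3.53 to 4.19 CPM in WT, 4.2 to 5.54 with PT2385 and 2.13 to 4.3 in KO, with DCN at 0 counts. In KO PDGFRB was called lower (27 to 31 counts in WT and 0 to 2 in KO) and LUM higher (15 to 22 and 31 to 60 counts). PDGFRB passed the filter on low counts there only through WT, so its call adds no support. The part of these markers in the results on integrin genes was not tested. With bulk RNA, a change in the number of cells that express a gene and a change in RNA per cell cannot be told apart.

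Of the 10 integrin genes 9 passed the filter on low counts in every comparison, with 62 to 18179 counts per library, so that none passed through 1 group alone. ITGB4 was at the edge of detection, with 2 counts in each WT library, 2 or 3 upon PT2385 treatment and 0, 3 and 2 in KO, and was not tested. The edgeR test (adjusted p under 0.05) called 4 of the 9 in PT2385-treated cells, where 7.70% of all 15089 tested genes were called. ITGB3 and ITGB6 were higher, as were 3.08% of all tested genes, and ITGB8 and ITGB5 were lower, as were 4.62%. With the replicate number as a block, which pairs these libraries, 6 of the 9 were called, ITGA3 and ITGA6 in addition, and 2305 genes in all. In KO 6 of the 9 differed from WT, where 30.1% of 15192 genes were called. ITGB3, ITGB6 and ITGA3 were higher, as were 14.7% of all tested genes, and ITGB8, ITGB5 and ITGA5 were lower, as were 15.4%. Between KO and PT2385 3 of the 9 differed, where 18.8% of 15402 genes were called, with ITGB6 higher in KO (8.47% of all tested genes) and ITGA5 and ITGA6 lower (10.3%). The median log2 fold change of the 9 genes was -0.020 with PT2385 and -0.028 in KO, beside medians of 0.00099 and 0.0038 over all tested genes. Both comparisons use the same WT libraries. For 1 gene alone, 3 libraries against 3 allow no exact permutation p (two-sided) below 0.1, and nothing in the labels says that replicates are separate cultures, so the model's p-values may measure technical spread.

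**Figure D1:**
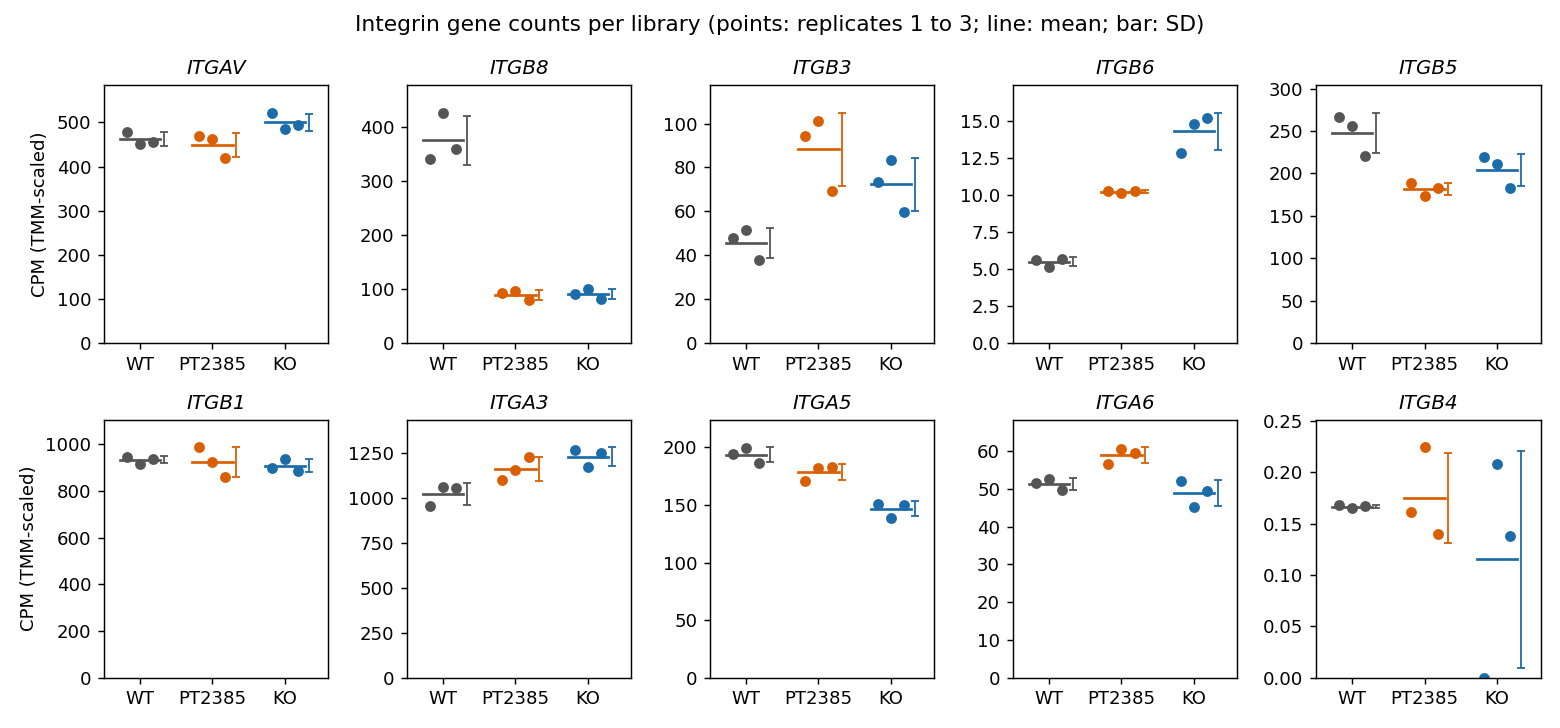
Each panel plots CPM (vertical axis, from 0) of 1 integrin gene in the 9 libraries by group, with points for replicates, a line for the mean and a bar for the SD (n = 3). ITGB8 is near 375 CPM in WT and near 90 CPM in both other groups, ITGB3 and ITGB6 lie above every WT library in both, and ITGB4 stays at or under 3 counts.

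The α subunit shared by these receptors, ITGAV (ENSG00000138448, chromosome 2, 186590010 to 186680901), had 479, 450 and 457 CPM in WT, 469, 461 and 419 CPM upon PT2385 treatment and 522, 485 and 493 CPM in KO. PT2385-treated and WT libraries overlapped, whereas every KO library lay above every WT library. The log2 fold change was -0.043 with PT2385 (95% confidence interval -0.17 to 0.089, adjusted p = 0.742, edgeR) and 0.13 in KO (interval 0.0011 to 0.25, adjusted p = 0.121), and neither passed the test.

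ITGB8 (ENSG00000105855, chromosome 7, 20330702 to 20415754) encodes β8, which pairs only with αV and is known as an activator of latent TGFβ. It had 339.9, 426 and 358 CPM in WT, 91.4, 96.5 and 79.1 CPM upon PT2385 treatment and 91.0, 100.3 and 80.9 CPM in KO. The lowest WT library thus lay far above the highest of the 6 others, and the PT2385 and KO libraries overlapped. ITGB8 fell 4.22-fold with PT2385 (log2 fold change -2.08, standard error 0.0964, adjusted p = 3.89e-08, edgeR) and 4.09-fold in KO (log2 fold change -2.03, standard error 0.1, adjusted p = 9.83e-08). In the direct comparison KO differed from PT2385 by 0.026 on the log2 scale, with a 95% confidence interval from -0.19 to 0.24. ITGB8-AS1, an antisense gene over ITGB8, had 0.25% as many counts.

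ITGB3 (ENSG00000259207, chromosome 17, 47253827 to 47313743) encodes β3, the partner of αV in the classical vitronectin receptor. Its levels were 47.6, 51.4 and 37.9 CPM in WT, 94.1, 101.3 and 69.3 CPM with PT2385 and 73.6, 83.6 and 59.7 CPM in KO. Replicate 2 was the highest and replicate 3 the lowest in each of the 3 groups, and all 6 treated or knockout libraries lay above all 3 WT libraries. ITGB3 rose 1.93-fold upon PT2385 treatment (log2 fold change 0.95, standard error 0.139, adjusted p = 0.00101, edgeR) and 1.60-fold in KO (log2 fold change 0.68, standard error 0.133, adjusted p = 0.00278). KO was 0.29 below PT2385 on the log2 scale in the direct comparison, with an interval from -0.62 to 0.037 (adjusted p = 0.216). Without replicate 3 of PT2385 that adjusted p was 0.0411, and with the replicate number as a block it was 0.00794. The difference also passed the test with no filter on low counts. Over all alternatives the adjusted p ran from 0.00794 to 0.572.

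ITGB6 (ENSG00000115221, chromosome 2, 160099667 to 160200313) encodes β6, an epithelial subunit that pairs only with αV. It was the least counted of the tested genes, with 67, 62 and 68 counts in WT, 127, 135 and 147 with PT2385 and 166, 213 and 221 in KO. The 3 groups did not overlap in CPM, with 5.63, 5.11 and 5.69 CPM in WT, 10.3, 10.1 and 10.3 CPM with PT2385 and 12.8, 14.8 and 15.2 CPM in KO. ITGB6 rose 1.86-fold upon PT2385 treatment (log2 fold change 0.90, standard error 0.133, adjusted p = 0.00114, edgeR) and 2.63-fold in KO (log2 fold change 1.40, standard error 0.135, adjusted p = 2.00e-05).

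KO exceeded PT2385 in ITGB6 by 0.48 on the log2 scale (standard error 0.121, adjusted p = 0.0172). The call was lost without replicate 2 of KO (adjusted p = 0.051) or replicate 2 of PT2385 (adjusted p = 0.0711), within a range of 0.00766 to 0.0711 over all alternatives. An unnamed long noncoding gene (ENSG00000285155) overlaps exons of ITGB6 on the same strand and had 36.7% as many counts. Its counts were 14, 36 and 23 in WT, 33, 52 and 56 with PT2385 and 58, 87 and 84 in KO, with KO above both other groups and PT2385 overlapping WT. How reads were divided between the 2 genes is not given in the sources used here.

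ITGB5 (ENSG00000082781, chromosome 3, 124761948 to 124901418) encodes β5, which pairs with αV and binds vitronectin. It had 267, 256 and 221 CPM in WT, 188, 174 and 183 CPM upon PT2385 treatment and 219, 211 and 182 CPM in KO. Every WT library lay above the others. For KO the margin was small, 219 against 221 CPM. ITGB5 fell by 27.0% with PT2385 (log2 fold change -0.45, standard error 0.0751, adjusted p = 0.00257, edgeR) and by 16.9% in KO (log2 fold change -0.27, standard error 0.0882, adjusted p = 0.0404). The call in KO was lost without WT replicate 1 (adjusted p = 0.156), WT replicate 2 (0.125) or KO replicate 3 (0.0741), and over all alternatives it ran from 0.00149 to 0.156. KO and PT2385 differed by 0.17 on the log2 scale (interval -0.010 to 0.34, adjusted p = 0.188), with an adjusted p of 0.0333 without KO replicate 3 and a range of 0.0333 to 0.487.

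**Figure D2:**
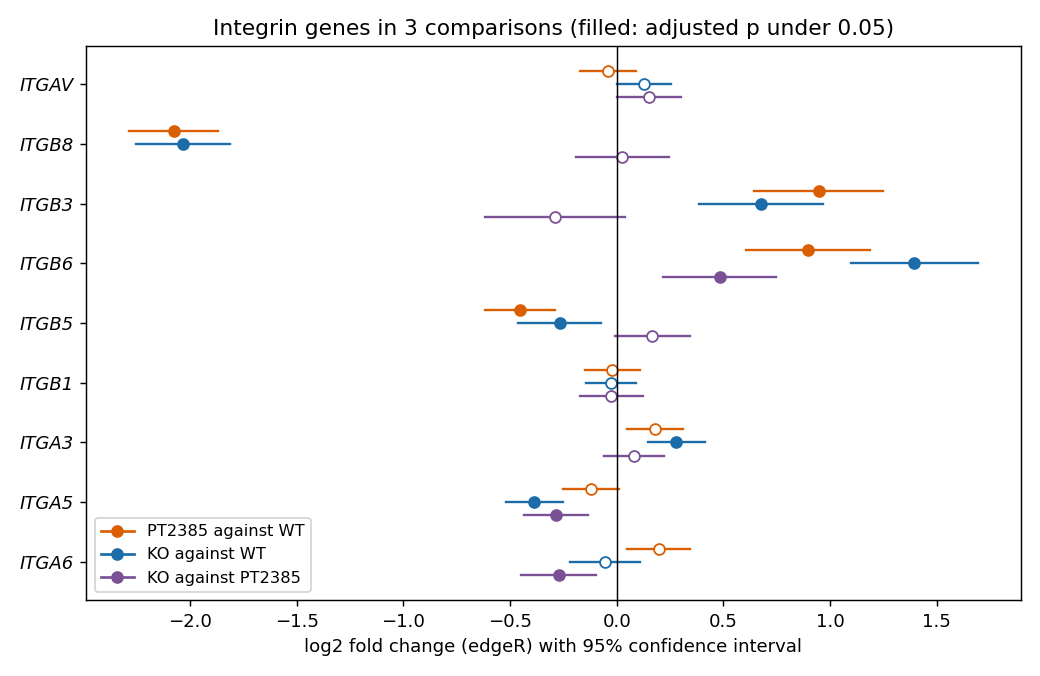
The horizontal axis gives the log2 fold change of 9 integrin genes in the 3 comparisons, with lines for 95% confidence intervals and filled points for an adjusted p under 0.05. ITGB8 lies near -2 against WT in both PT2385 and KO and near 0 between them, while ITGB3 and ITGB6 lie above 0 in both.

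ITGB1 (ENSG00000150093, chromosome 10, 32887273 to 33005792), whose product β1 is the common partner of many α subunits, had 947, 917 and 935 CPM in WT. It had 986, 922 and 858 CPM upon PT2385 treatment and 899, 937 and 883 CPM in KO, and all groups overlapped. Its log2 fold change was -0.020 with PT2385 (interval -0.15 to 0.11) and -0.028 in KO (interval -0.15 to 0.090), neither of which passed the test (adjusted p = 0.888 and 0.741, edgeR). The sign of the value with PT2385 turned with library-size scaling.

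ITGA3 (ENSG00000005884, chromosome 17, 50055968 to 50090481), the laminin-binding partner of β1, had 954, 1060 and 1059 CPM in WT, 1101, 1158 and 1229 CPM upon PT2385 treatment and 1271, 1173 and 1251 CPM in KO. All libraries of both other groups lay above those of WT. ITGA3 rose by 21.4% in KO (log2 fold change 0.28, standard error 0.0605, adjusted p = 0.00489, edgeR). With PT2385 ITGA3 gave a value of 0.18 on the log2 scale (standard error 0.0608), which did not pass the test with an adjusted p of 0.106. It did pass with the replicate number as a block (0.00325), with no filter on low counts (0.0356) and without PT2385 replicate 1 (0.0484), and over all alternatives the adjusted p ran from 0.00325 to 0.35.

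ITGA5 (ENSG00000161638, chromosome 12, 54395261 to 54419266), the fibronectin-binding partner of β1, had 194, 199.7 and 187 CPM in WT, 171, 182 and 183 CPM with PT2385 and 151, 139 and 150.4 CPM in KO. The groups did not overlap, with WT highest and KO lowest. ITGA5 fell by 23.5% in KO (log2 fold change -0.39, standard error 0.0608, adjusted p = 0.000648, edgeR), whereas with PT2385 the log2 fold change of -0.12 (interval -0.25 to 0.011) did not pass the test (adjusted p = 0.282). The direct comparison gave -0.29 for KO against PT2385 (standard error 0.0679, adjusted p = 0.0133). That call was lost without KO replicate 2 (adjusted p = 0.0554) or PT2385 replicate 2 (0.0886), in a range of 0.00411 to 0.0886 over all alternatives.

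ITGA6 (ENSG00000091409, chromosome 2, 172427354 to 172506459), which encodes the laminin-binding α6 of α6β1 and α6β4, had 51.5, 52.8 and 49.7 CPM in WT. It had 56.6, 60.7 and 59.5 CPM with PT2385, above every WT library, and 52.1, 45.2 and 49.5 CPM in KO, which overlapped WT. The log2 fold change was 0.20 with PT2385 (adjusted p = 0.115, edgeR, and 0.0476 with the replicate number as a block, in a range of 0.0476 to 0.354) and -0.057 in KO (adjusted p = 0.615). KO lay 0.27 below PT2385 on the log2 scale (standard error 0.0796, adjusted p = 0.0366). This call was lost with DESeq2 (0.0713) and in 5 of the 6 fits that left out 1 library, all but that without PT2385 replicate 1, with adjusted p up to 0.166. PDK1-AS1, a gene on the opposite strand over ITGA6, had 2.91% as many counts.

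Of the 9 tested genes 7 had no overlap between PT2385 and WT libraries, where 26.0% of all tested genes had none, and 7 had none between KO and WT, where the share of all tested genes was 43.8%. Between KO and PT2385 4 of the 9 had none, beside 35.4% of all tested genes.

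To compare levels between genes, CPM were divided by the length of all annotated exons in kilobases. In WT the order was ITGA3 (105 ± 6.26 CPM per kilobase), ITGB1 (64.1 ± 1.04), ITGB5 (38.0 ± 3.66), ITGA5 (26.2 ± 0.879), ITGB8 (24.7 ± 2.99), ITGAV (23.9 ± 0.784), ITGA6 (7.68 ± 0.227), ITGB3 (6.68 ± 1.01), ITGB6 (0.947 ± 0.0551) and ITGB4 (0.0247 CPM per kilobase, SD, n = 3). ITGB8 overlapped both its neighbours ITGA5 and ITGAV, while every ITGA5 library lay above every ITGAV library, and ITGA6 and ITGB3 overlapped. With the longest annotated transcript as length, ITGAV had 58.1 ± 1.91 CPM per kilobase in WT, beside ITGB5 with 55.8 ± 5.38, so the place of ITGAV rests on the choice of length.

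The order of the other subunits then changed between groups. ITGB8 had 24.7 ± 2.99 CPM per kilobase in WT, above ITGB3 with 6.68 ± 1.01, whereas upon PT2385 treatment ITGB3 had 12.9 ± 2.46 and ITGB8 5.87 ± 0.588 CPM per kilobase. In KO ITGB3 also lay above ITGB8, with 10.6 ± 1.76 against 5.99 ± 0.64 CPM per kilobase (SD, n = 3). With the longest transcript as length, ITGB3 had 12.2 ± 2.02 and ITGB8 10.1 ± 1.08 CPM per kilobase in KO. The gap was smaller there, but ITGB3 lay above ITGB8 in each KO library (12.4 against 10.1, 14.1 against 11.2 and 10.0 against 9.01).

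Among the 4 β subunits that pair with αV alone or, for β3, with few others, the share of ITGB8 in the summed CPM per kilobase was 35.1% ± 3.18 in WT, 12.1% ± 0.662 with PT2385 and 11.9% ± 0.442 in KO (SD, n = 3). The share of ITGB3 was 9.46% ± 0.686, 26.6% ± 3.78 and 20.9% ± 1.65 in the same order. ITGB6 held 1.36% ± 0.185, 3.66% ± 0.241 and 4.95% ± 0.848, and ITGB5 held most in every group, with 54.1% ± 2.95, 57.7% ± 4.18 and 62.2% ± 1.87. With β1 included as a further partner of αV, ITGB1 held 47.7% ± 2.34 in WT, 56.7% ± 0.612 with PT2385 and 55.4% ± 1.94 in KO. With the longest transcript as length, ITGB1 held 61%, 70.7% and 69.4% in the same order. ITGB3 then held 7.19%, 21.8% and 17% among the 4 subunits without β1. The size of these shares thus rests on the choice of length, while both lay above WT in the other groups with either length. These are shares of transcripts per length, not of receptors at the cell surface, and they restate the levels above without a test of their own.

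**Figure D3:**
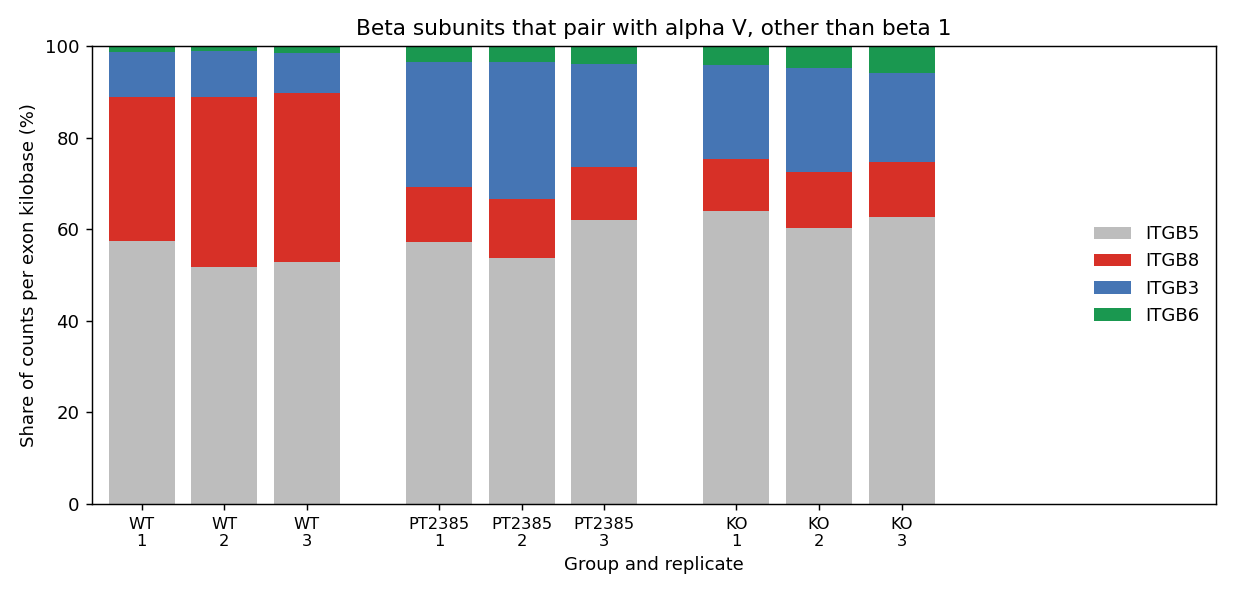
Each bar is 1 library and stacks the shares (percent) of ITGB5, ITGB8, ITGB3 and ITGB6 in their summed CPM per kilobase of exon. The ITGB8 part shrinks from 35.1% on average in WT to 12.1% with PT2385 and 11.9% in KO, and the ITGB3 part grows.

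The genes whose pattern over the 9 libraries came nearest were found by the root mean square difference of log2 CPM centred on the WT mean, among 10138 other genes with at least 100 counts on average. Nearest to ITGB8 were SYNPO (difference 0.193), ERRFI1 (0.212) and VEGFA (0.223), the last a secreted angiogenic factor whose log2 fold changes were -2.12 with PT2385 and -2.12 in KO. Nearest to ITGB3 were TNIK (0.208), PIK3R3 (0.234) and OLFML2B (0.256). EPHX1 (0.177), ZSCAN31 (0.179) and RGS3 (0.186) came nearest to ITGB6, and MOB3A (0.0578), DNAJB12 (0.0895) and C2orf68 (0.0917) to ITGB5. ITGB5 also had the smaller fold changes of these 4 genes.

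Most other integrin genes were hardly counted in these cells. Of 16 further α and β genes, 6 had at most 3 counts in every library, 4 of them 0, and 10 were not tested. The highest count in any library was 262, that of ITGB2. Of the 6 tested genes 0 were called upon PT2385 treatment by edgeR, as by DESeq2, and 0 had an unadjusted p under 0.05.

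In KO 1 of the 6 was called (2 without KO replicate 3), beside 30.1% of all tested genes. It was ITGB2, named here after its values were seen, which encodes the leukocyte subunit β2. ITGB2 had 27, 61 and 36 counts in WT, 23, 55 and 64 with PT2385 and 131, 105 and 262 in KO, which lay above the others (log2 fold change 1.79 against WT, standard error 0.351, adjusted p = 0.00273, edgeR). Of its α partners, ITGAL had 0 counts in every library, ITGAM at most 8 and ITGAX at most 5. The 4 leukocyte markers summed to 37.8 to 39.4 CPM in WT, 32.1 to 35.8 CPM with PT2385 and 2.78 to 7.16 CPM in KO, nearly all of it from LCP1, while CD3E was at 0, and their part in the result was not tested.

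Of 18 genes for ligands of RGD-binding integrins and for the latent TGFβ complex 13 were tested. Upon PT2385 treatment 7 of them rose and 2 fell, with a median log2 fold change of 0.30, where 3.08% of all tested genes were higher and 4.62% lower. In KO 7 rose and 3 fell, with a median of 0.65, where 14.7% of all tested genes were higher and 15.4% lower. Among the 3 is LTBP1, described below, which passed the filter on low counts only through WT, so its call in KO adds no support. FN1, which encodes fibronectin, the ligand of α5β1 and αV integrins, had 4217 ± 730 CPM in WT, 8498 ± 1449 with PT2385 and 25250 ± 2828 in KO (SD, n = 3), and rose 2.01-fold with PT2385 and 6.04-fold in KO (in KO adjusted p = 7.97e-08, edgeR). TNC, which encodes tenascin C, an ECM protein, went from 216 ± 12.8 CPM in WT to 299 ± 11.1 with PT2385 and 394 ± 69.4 in KO, and passed the test in both. CCN2, a matricellular protein, went from 12.5 ± 2.61 to 25.0 ± 2.18 and 32.3 ± 12.2 CPM and also rose in both.

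LTBP1, a latent TGFβ binding protein named here after its values were seen, had 84, 87 and 66 counts in WT, 21, 26 and 16 with PT2385 and 5, 1 and 1 in KO. It fell with PT2385 (log2 fold change -2.06, adjusted p = 0.000114, edgeR). The 9 calls of this list with PT2385 were 5 without WT replicate 1, 4 without WT replicate 2, 5 without WT replicate 3 and 4 without PT2385 replicate 2.

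Of 12 laminin chains, the ligands of α3β1, α6β1 and α6β4, 9 were tested with PT2385, where 7.70% of all tested genes were called, and 1 rose, LAMB1, from 467 ± 8.56 CPM in WT to 639 ± 6.30 (adjusted p = 0.000114, edgeR). With the replicate number as a block 3 were called, and 3 also without PT2385 replicate 3. In KO 4 of 8 rose and 2 fell, beside 30.1% of all tested genes called in either direction. Among the 4 is LAMA1, named after its values were seen, with 4 to 18 counts in WT and 29 to 43 in KO. LAMA1 passed the filter on low counts only through KO, so its call adds no support. LAMA5 had 5.47 ± 0.937 CPM in WT and 38.0 ± 3.80 in KO, and LAMC1 fell from 615 ± 9.07 to 388 ± 14.0 CPM (SD, n = 3). LAMA5 overlaps ADRM1 and LAMB1 overlaps DLD on the opposite strand, and without the strand setting of the counting, reads of such pairs cannot be told apart.

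Among 7 genes for hemidesmosomes and tetraspanins, which accompany α6β4 and α3β1, 0 of the 5 tested were called with PT2385 by edgeR and 0 by DESeq2, 3 had an unadjusted p under 0.05, and 2 were called with the replicate number as a block and 1 without PT2385 replicate 1. In KO 2 of 6 rose, CD82 and COL17A1. CD82 had 75.1 ± 6.20 CPM in WT and 103 ± 22.1 in KO, and the libraries of these groups overlapped. The little counted COL17A1 (0.61 ± 0.312 and 1.77 ± 0.334 CPM) was named after its values were seen. With 3 to 10 counts in WT and 20 to 29 in KO, COL17A1 passed the filter on low counts only through KO. Its call thus adds no support, and with PT2385 it was not tested. This count of 2 of 6 is near the 30.1% of all tested genes called in KO, and without WT replicate 1, WT replicate 2 or KO replicate 1 it was 1.

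Of 26 adaptors and kinases of focal adhesions, which link β tails to actin, 25 were tested. With PT2385 1 rose (FERMT1) and 3 fell (PXN, KANK1 and LIMS2), all 4 named after their values were seen, and the count of 4 was 2 without WT replicate 1, 1 without WT replicate 2, 2 without WT replicate 3 and 2 without PT2385 replicate 2. In KO 6 rose and 8 fell, 9 in all without WT replicate 2 and 9 without KO replicate 1. The largest fall in KO was that of LIMS2 (log2 fold change -3.66), with 117 to 148 counts in WT and 7 to 15 in KO. LIMS2 passed the filter on low counts there only through WT, so its call in KO adds no support. Of all tested genes 7.70% were called with PT2385 and 30.1% in KO. TLN2, a talin that binds β tails, fell from 145 ± 3.27 CPM in WT to 79.1 ± 1.46 in KO, with 160 ± 5.43 upon PT2385 treatment. TNS3, a tensin, rose from 120.1 ± 6.94 to 234 ± 3.27 CPM in KO, with 120.2 ± 2.38 upon PT2385 treatment. TNS2 (18.5 ± 0.986 and 32.6 ± 4.52 CPM) and KANK2 (73.7 ± 0.328 and 117 ± 24.6 CPM) also rose in KO, and TNS2 overlaps SPRYD3 on the opposite strand.

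Of 9 genes for integrin inactivation and trafficking all were tested, and 0 were called with PT2385 by edgeR or DESeq2, with 1 at an unadjusted p under 0.05. In KO 1 was called, RAB11A, a GTPase of recycling endosomes, which fell from 83.2 ± 0.837 CPM in WT to 57.6 ± 2.93 (SD, n = 3, adjusted p = 0.00014, edgeR). Over all tested genes the shares called were 7.70% with PT2385 and 30.1% in KO.

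**Figure D4:**
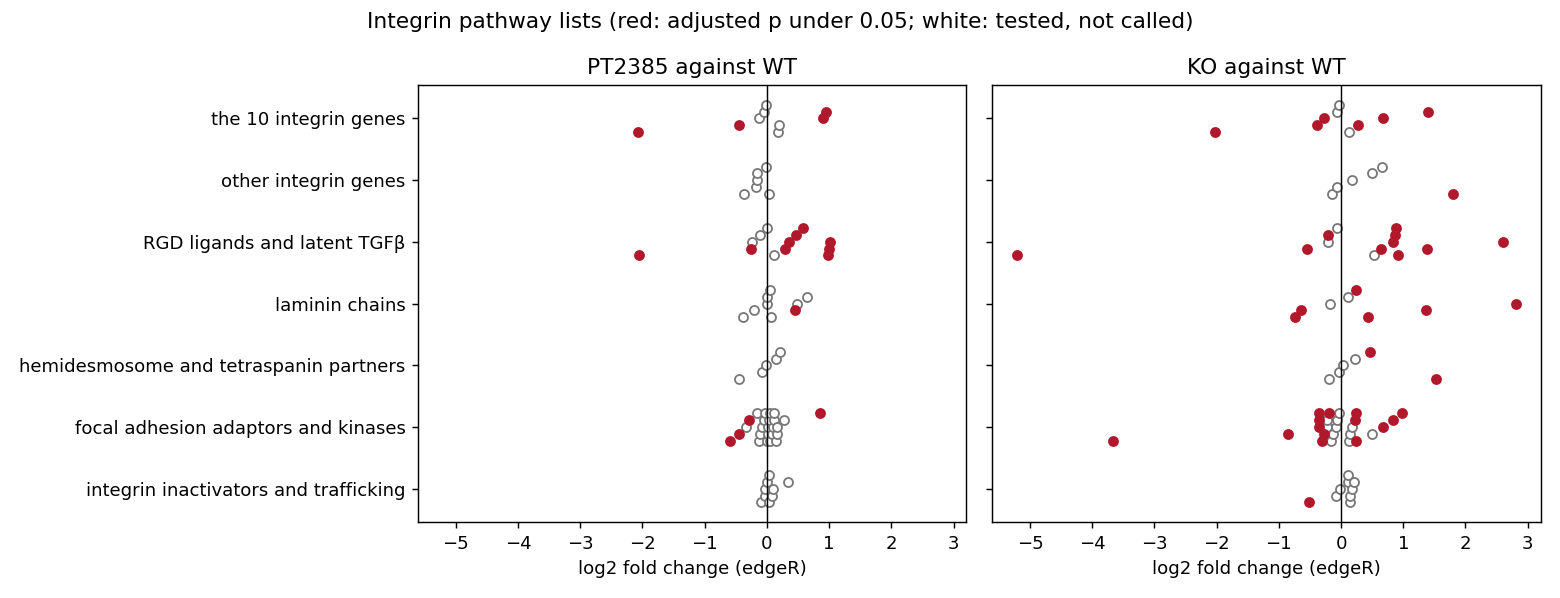
Each point is 1 tested gene, by list (rows) and log2 fold change (horizontal axis), with PT2385 against WT on the left and KO against WT on the right, and red points have an adjusted p under 0.05. The 9 tested integrin genes span -2.08 to 0.95 with PT2385 and -2.03 to 1.40 in KO, with ITGB8 the lowest of them in both.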

How the data were processed

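RNAseq of 9 libraries of 786-0 cells was analysed, 3 each of WT, PT2385 and KO, grouped by their titles. The authors deposited raw counts, without normalization, in 9 columns. These are featureCounts totals per gene from STAR alignments to GRCh38, made after cutadapt trimming and FastQC control. Versions, annotation release and strand setting are not given in the sources used here. Symbols, positions and exon lengths came from GENCODE release 44 (GRCh38), which paired 58207 of 58735 identifiers.

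Each pair of groups was fitted alone with edgeR 4.0.16 (R 4.3.3): filterByExpr with a minimum of 10 counts, TMM scaling and the quasi-likelihood test. P-values of all tested genes were adjusted by Benjamini and Hochberg, and a gene was called at an adjusted p under 0.05. Standard errors were taken from the F statistic and intervals from its degrees of freedom. CPM used TMM factors of all 9 libraries (0.988 to 1.02). The fit was tested on simulated data. Total counts of 11881000 to 14730081 per library limit the precision of low counts.

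Named genes were the 10 integrin genes, up to 4 called genes per pathway list by fold change with a mean of at least 100 counts, the 3 nearest patterns of ITGB3, ITGB5, ITGB6 and ITGB8, and EPAS1, and 2 results that this rule gives are not reported here. The integrin genes and lists were chosen with earlier results of these data known. Same-numbered replicates deviated together for PT2385 and WT, though weakly for replicate 2 (correlations of 0.453, 0.137 and 0.431 over 10140 genes), but not in every pair with KO (0.056 to 0.481). Pairs with different numbers gave at most 0.293 (WT replicate 1 with KO replicate 2). Between PT2385 and WT such pairs gave at most 0.0918. The main fits used no block and so ignored this pairing, also for PT2385 against WT. Only the alternative with a block for the replicate number takes it into account. Alternatives were RLE and library-size scaling, no filter, DESeq2 1.42.0, 1 model of all 9 libraries, a block for the replicate number, each library left out, and longest-transcript length. Other assays of the study are not analysed here.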

Additional observations from a re-analysis of the deposited data

How the results depend on the processing

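The 27 log2 fold changes of the 9 tested integrin genes were recomputed under the alternatives, which gave 324 values. Of these 296 kept the direction and the side of the threshold, 13 lost the call, 9 gained it and 6 turned in sign without a call in either fit. ITGB3, ITGB6 and ITGB8 against WT, ITGB5 with PT2385, and ITGA3 and ITGA5 in KO kept their calls under every alternative run. With 1 library left out, ITGB8 ran from -2.14 to -1.97 on the log2 scale with PT2385 and from -2.11 to -1.94 in KO.

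The values that turned in sign were those of ITGB1 with PT2385 under library-size scaling (0.00118) and, with 1 library left out, ITGB1 (-0.0741 to 0.0304) and ITGAV (-0.0767 to 0.00744) with PT2385, and ITGB8 (-0.0507 to 0.103) and ITGB1 (-0.065 to 0.0284) in KO against PT2385. The cause was not tested. The number of integrin genes called in KO against PT2385 ran from 0 to 3 with 1 library left out, with 0 both without KO replicate 2 and without PT2385 replicate 2. The calls ran from 4 to 5 with PT2385 and from 5 to 6 in KO against WT.

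Over all genes 1162 were called with PT2385, 2305 with the replicate number as a block, 654 without WT replicate 1, 581 without WT replicate 2, 728 without WT replicate 3 and 574 without PT2385 replicate 2. KO against PT2385 gave 2897 calls and 1836 without PT2385 replicate 2. Same-numbered libraries of KO and WT deviated together for replicates 1 and 3 (correlations of 0.319 and 0.481) and hardly for replicate 2 (0.056). Between KO and PT2385 the correlations were 0.348, 0.0915 and 0.415 for replicates 1 to 3. In KO the block gave an adjusted p (edgeR) of 0.0485 for ITGAV against WT and of 0.00794 for ITGB3 against PT2385. Against WT in KO the block called 4 hemidesmosome and tetraspanin genes and 2 genes for inactivation and trafficking, and without a filter on low counts 4 of the former and 2 other integrin genes were called. With PT2385 the calls among laminins were 2 without the filter and 2 in 1 model of all libraries, and among hemidesmosome and tetraspanin genes 1 without the filter. With longest transcripts as length the mean share of ITGB8 among ITGB3, ITGB5, ITGB6 and ITGB8 was 39.2% in WT, 14.6% with PT2385 and 14.2% in KO. Few counts limit ITGB4 and leave ITGB6 with the least depth of the tested genes.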
